A study of Mus musculus with 24 samples.

Results

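The genes described here are 47 mouse genes of programmed cell death: the tumour suppressor gene Trp53 with genes known as its targets or as growth-arrest genes, the BCL2 family, the proteins released from mitochondria and the apoptosome, initiator and effector caspases, death receptors, inhibitors of apoptosis and the kinases and pore protein of necroptosis. They were found by gene symbol in the deposited table. All 47 were present, on 48 of the 33084 lines, because Bcl2l2 stood on 2 lines that were kept apart. All 48 lines passed the filter on low values, which left 18364 lines tested. Hippocampal RNA was sequenced from mouse pups put through hypoxia-ischemia, a model of brain injury at birth, on postnatal day 10. The 24 libraries formed 12 groups of 2: wild type (WT), NEIL1-KO and NEIL2-KO, the contralateral and the injured ipsilateral hippocampus, each at 3 h and at 6 h. Both sides were taken to come from the same 12 animals. Neil1 and Neil2 encode DNA glycosylases that remove oxidized bases, and the knockouts are described as deficient for 1 of them; the labels give neither the allele nor the strain nor the sex of the pups. All pups had hypoxia-ischemia, and no sham or untreated group was analysed here. The NEIL2-KO libraries are named so by their titles, while their genotype tag reads NEIL1-KO.

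Cells can be taken apart by several routes. In the p53 route, DNA damage and other stress stabilize the p53 protein, which switches on genes that halt the cell cycle, such as Cdkn1a, and genes that kill, such as Bbc3 and Pmaip1. In the mitochondrial route, BH3-only proteins neutralize the protective BCL2 proteins or activate BAX and BAK, which open the outer mitochondrial membrane so that cytochrome c can assemble APAF1 and caspase 9. Death receptors such as FAS engage caspase 8 directly, and where caspase 8 is blocked RIPK1 and RIPK3 can drive MLKL to rupture the membrane, which is necroptosis. After neonatal hypoxia-ischemia all of these routes are known to take part in the loss of hippocampal neurons. Much of this control acts on proteins, by cleavage, phosphorylation and release, which RNA levels do not show.

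Levels are size-factor normalized read counts. Differences are log2 fold changes on the log2(value + 1) scale with their standard error, from limma over all lines tested, and a gene was called at a Benjamini-Hochberg adjusted p under 0.05. Depth was 17771293 to 29252067 reads per library. Neil2 lay between 0 and 3.02 in the NEIL2-KO libraries against 15.2 to 27.8 in WT. Neil1 lay between 91.6 and 154.6 in the libraries labelled NEIL1-KO against 56.8 to 122.6 in WT, so it was not lower there; counts per gene do not show which part of it was read. The contralateral and ipsilateral libraries separated on the first principal component, and the labelled NEIL1-KO ipsilateral 6 h replicate 2 stood apart on the second (-56.5, against -25.3 to 31.1 in the other libraries). Xist was above 1000 in 6 libraries, both sides of 3 animals: replicate 2 of NEIL2-KO at 6 h and replicate 2 of labelled NEIL1-KO at each time. Ttr, the main transport protein of the choroid plexus, ranged from 74.0 to 35647. Of 12 neuronal markers, 8 were lower and 0 higher on the ipsilateral side at 3 h and 11 were lower and 0 higher at 6 h. Their summed level was 193635 to 214429 contralaterally and 129677 to 170970 ipsilaterally at 3 h, and 177053 to 216864 and 79744 to 153270 at 6 h. Of 10 endothelial markers, 6 were higher and 0 lower at 3 h and 7 higher and 1 lower at 6 h, with sums of 4690 to 5821 and 7523 to 9369 at 3 h and of 5069 to 5675 and 6530 to 15583 at 6 h. No marker in either list was at 0 in any of these groups. In bulk tissue, fewer cells of a type and less RNA per cell cannot be told apart, and the part of these shifts in the results below was not tested.

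Most of the death genes were higher on the injured side by 6 h, and those with a difference of 1.5 or more at 6 h were the receptor gene Fas, the growth-arrest and stress genes Gadd45b, Gadd45g, Gadd45a and Plk3, and the BH3-only genes Pmaip1 and Bcl2l11. With the genotypes averaged, 19 of the 48 lines were higher and 6 lower on the ipsilateral side at 3 h, and 23 were not called. Of all lines tested at 3 h, 31.6% were called, 14.1% higher and 17.4% lower. At 6 h 28 lines were higher, 8 were lower and 12 were not called, against 48.7% of all lines called, 24% higher and 24.7% lower. The median difference of the 48 lines was 0.17 at 3 h and 0.35 at 6 h, against 0.01 and 0.02 over all lines. In 14 lines at 3 h and 20 at 6 h every ipsilateral library lay above every contralateral one, which held for 7.07% and 9.55% of all lines. In 3 lines at each time every ipsilateral library lay below, which held for 11.2% and 12.1% of all lines. By class at 6 h, 10 of 16 p53 and growth-arrest genes were higher and 2 lower, 6 of 9 pro-apoptotic BCL2 genes higher and 2 lower, 2 of 5 anti-apoptotic lines higher and 2 lower, 0 of 5 mitochondrial genes higher and 1 lower, 2 of 4 caspases higher and 0 lower, 2 of 3 inhibitors of apoptosis higher and 1 lower, and all 3 death receptors and all 3 necroptosis genes higher.

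**Figure D1:**
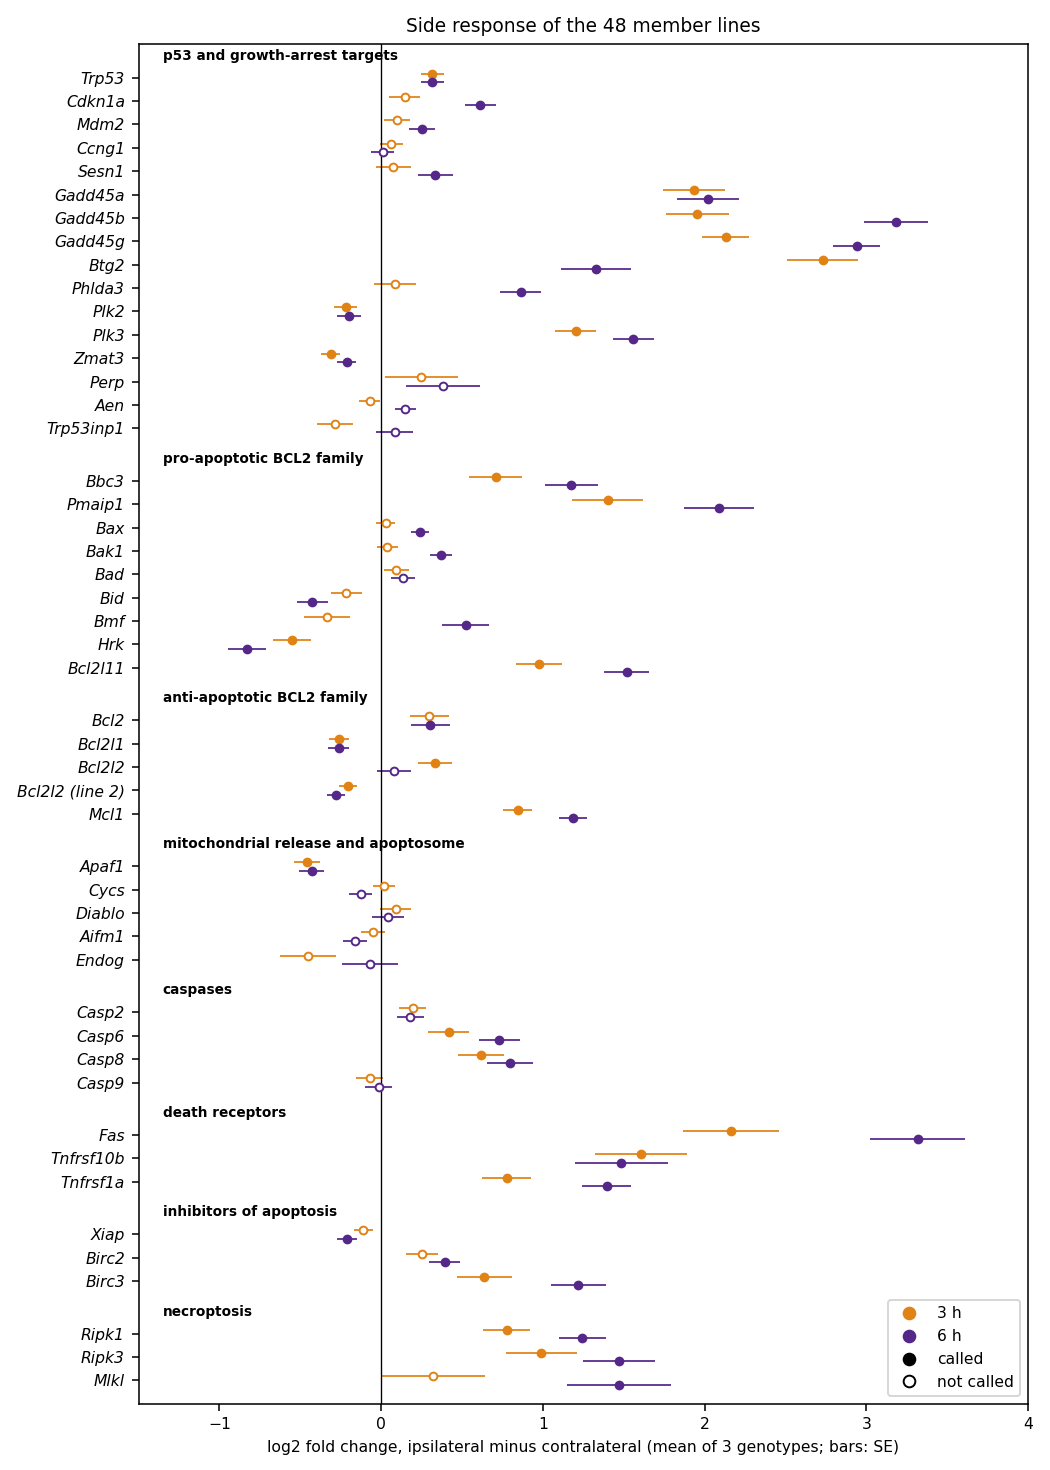
Difference between the sides (log2, ipsilateral minus contralateral, mean of the 3 genotypes, horizontal axis) for each of the 48 lines, grouped by class, at 3 h (orange) and 6 h (purple); bars are the standard error and filled points were called. Gadd45b, Gadd45g and Fas reach 2.94 to 3.32 at 6 h, Btg2 is much further right at 3 h (2.73) than at 6 h (1.33), and Hrk lies furthest left (-0.55 and -0.83).

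Among p53 and growth-arrest genes, the GADD45 genes, which encode stress sensors that bind and activate a kinase upstream of p38 and JNK, stood well above the contralateral side at both times. Gadd45a lay between 27.3 and 87.7 (median 52.2) in the 6 contralateral libraries and between 159.9 and 266.6 (192.3) in the 6 ipsilateral ones at 3 h, and between 41.2 and 70.3 (52.5) and between 172.0 and 252.1 (218.8) at 6 h. The sides were separate at both times, and the difference was 1.93 ± 0.19 (adjusted p = 1.04e-06) at 3 h and 2.02 ± 0.19 (1.62e-07) at 6 h. Gadd45b was 144.1 to 561.3 (269.6) contralaterally and 838.4 to 1273 (1135) ipsilaterally at 3 h, and 115.1 to 220.3 (137.4) and 1031 to 1521 (1405) at 6 h. Here too no library of one side reached the other, with differences of 1.95 ± 0.20 (1.19e-06) and 3.18 ± 0.20 (1.37e-09). Gadd45g, the third of the family, was 312.3 to 907.7 (593.2) against 2213 to 2587 (2423) at 3 h and 195.3 to 425.2 (309.1) against 2075 to 3306 (2217) at 6 h. Its differences were 2.13 ± 0.14 (8.58e-09) and 2.94 ± 0.14 (9.85e-11), the latter the smallest adjusted p of the 48 lines.

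Btg2, an antiproliferative gene that is both a p53 target and an immediate-early gene, followed another course. At 3 h it was 259.0 to 514.2 (median 294.5) contralaterally and 1459 to 2770 (2402) ipsilaterally, and at 6 h 216.5 to 359.8 (290.7) and 459.1 to 1142 (670.9). The sides were separate at both times, but the ipsilateral libraries were all lower at 6 h than at 3 h, and the difference was 2.73 ± 0.22 (adjusted p = 6.94e-08) and then 1.33 ± 0.22 (6.64e-05). Plk3, a polo-like kinase of the stress response, was 228.2 to 319.0 (262.3) against 489.1 to 811.4 (609.8) at 3 h and 135.6 to 242.2 (218.3) against 375.9 to 795.5 (574.7) at 6 h. It was separate by side at both times, with differences of 1.20 ± 0.12 (1.72e-06) and 1.56 ± 0.12 (2.58e-08). Its relative Plk2, which is also known for tuning synapses, lay slightly lower on the injured side, with overlapping sides, at -0.22 ± 0.07 (0.0261) and -0.20 ± 0.07 (0.0285). With the animal as a block the Plk2 calls were lost (0.0576 at 3 h and 0.0595 at 6 h). They were also lost without any 1 of 6 libraries at 3 h (up to 0.0991) and any 1 of 5 at 6 h (up to 0.0893).

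Trp53 itself, the cell-cycle inhibitor gene Cdkn1a and the feedback gene Mdm2 differed by 0.25 to 0.61 at 6 h. Trp53 was 369.2 to 429.5 (median 385.3) contralaterally and 421.6 to 563.9 (488.9) ipsilaterally at 3 h, and 370.3 to 490.0 (432.5) and 407.3 to 648.7 (557.9) at 6 h. The sides overlapped, and the difference was 0.32 ± 0.07 at both times (adjusted p = 0.00239 and 0.00128). Within a genotype Trp53 was called in labelled NEIL1-KO only, at both times, and the 6 differences ran from 0.12 to 0.53. Cdkn1a, which encodes the cell-cycle inhibitor p21, was 663.9 to 1357 (1118) against 1006 to 1319 (1166) at 3 h, a difference of 0.14 ± 0.09 that was not called (0.266). At 6 h it was 670.1 to 1091 (831.5) against 1206 to 1385 (1294), with the sides separate and a difference of 0.61 ± 0.09 (3.62e-05). Mdm2, the ligase that degrades p53 and is itself induced by it, was 730.5 to 890.2 (806.1) against 694.2 to 1003 (859.7) at 3 h and 717.3 to 955.1 (842.0) against 922.1 to 1085 (1017) at 6 h. Its sides overlapped at both times, with differences of 0.10 ± 0.08 (0.377) and 0.25 ± 0.08 (0.0134). Without the labelled NEIL1-KO ipsilateral 3 h replicate 1, Mdm2 was called at 3 h as well (0.19, adjusted p = 0.0463).

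Phlda3, a p53 target that restrains AKT, was 192.2 to 426.3 (median 302.4) against 258.4 to 388.5 (305.6) at 3 h and 227.5 to 360.9 (257.5) against 344.4 to 713.3 (493.1) at 6 h. It was not called at 3 h (0.09 ± 0.13, adjusted p = 0.647) and was higher at 6 h in 6 of 6 animals (0.86 ± 0.13, 2.24e-05). Sesn1, a sestrin that limits growth signalling, was likewise called at 6 h only (0.08 ± 0.11, 0.631, then 0.34 ± 0.11, 0.0149). The Sesn1 call at 6 h was lost without the WT ipsilateral replicate 2 (0.0540) and without the NEIL2-KO contralateral replicate 2 (0.0629). Zmat3, which encodes an RNA-binding protein and is a well-known p53 target, went the other way. It was 1656 to 2115 (1965) against 1127 to 1779 (1654) at 3 h and 1529 to 1839 (1609) against 1151 to 1683 (1465) at 6 h, lower by -0.31 ± 0.06 (0.000716) and -0.21 ± 0.06 (0.00702) with overlapping sides. The cyclin gene Ccng1, the membrane protein gene Perp, the nuclease gene Aen and the p53 cofactor gene Trp53inp1 were not called by limma at either time, with differences between -0.29 (Trp53inp1 at 3 h) and 0.38 (Perp at 6 h). DESeq2 called Trp53inp1 at 3 h (adjusted p = 0.0426) and edgeR called Aen at 6 h (0.0441).

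**Figure D2:**
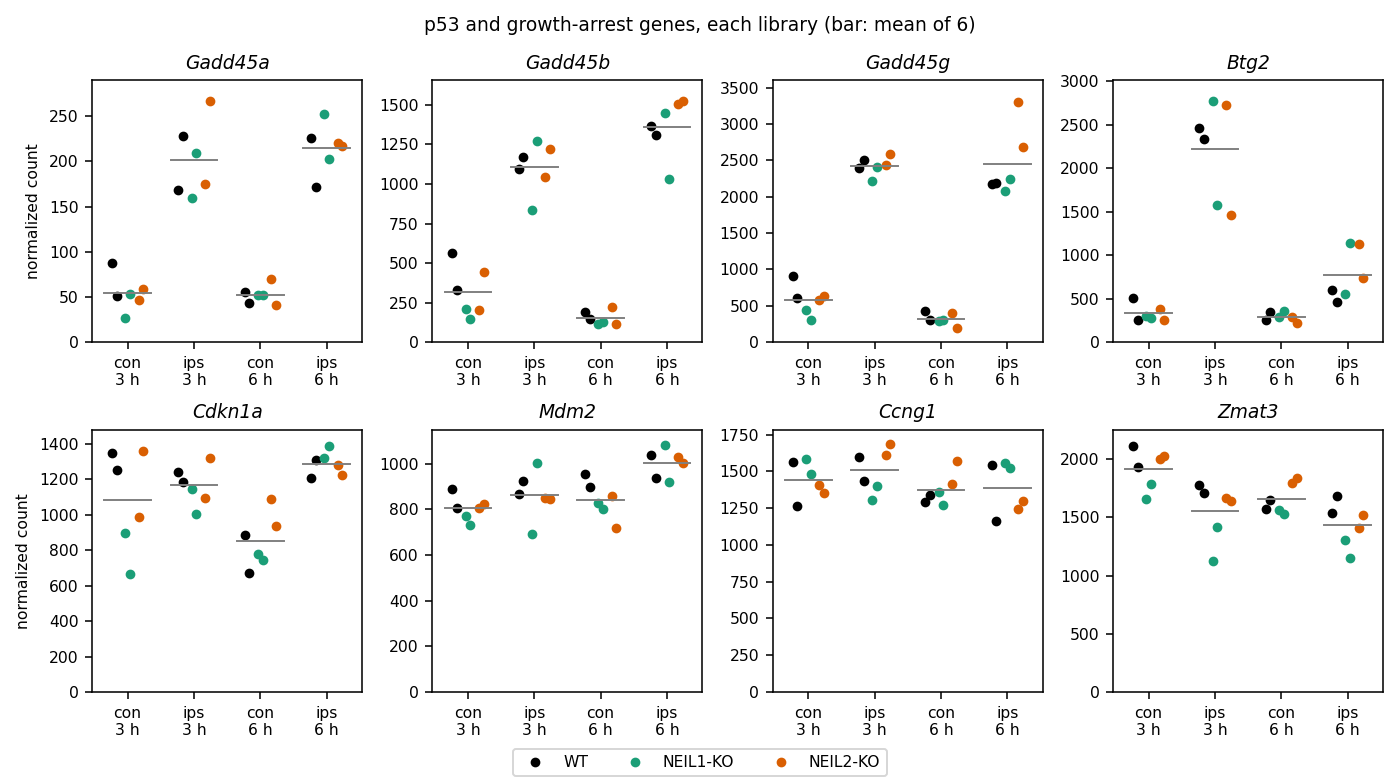
Normalized count (vertical axis, from 0, scale differs by panel) of 8 p53 and growth-arrest genes in each library, by side and time, coloured by genotype label; the bar is the mean of 6 libraries. The sides are separate at both times for Gadd45a, Gadd45b, Gadd45g and Btg2, Cdkn1a separates at 6 h only, and Mdm2, Ccng1 and Zmat3 overlap.

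Promoter sequence was available for 42 of the 47 genes, as 57 windows in RefSeq's table on build GRCm38.p6; the deposited counts were made on GRCm39, so these coordinates are the table's own. The 250 bases before each start were searched on both strands for the p53 decamer, which is the repeated unit of a p53 response element, for the NF-kB site, and for the AP-1 site TGANTCA, the cAMP response element TGACGTCA and the heat shock element GAANNTTC. Zmat3, Perp, Trp53inp1, Pmaip1 and Tnfrsf10b had no window. The members include known p53 targets by choice, so their share of p53 decamers is not independent of how the list was made. The p53 decamer stood in 15.8% of the 57 windows and in 7.13% of all 32851 windows of the table. The 9 genes that held it were Trp53, Cdkn1a, Mdm2, Ccng1, Sesn1, Gadd45a, Aen, Bax and Bmf, and 7 of these 9 were called higher on the injured side at 6 h, beside 28 of the 48 lines and 24% of all lines. Whether the motif and the rise go together was not tested. The other motifs stood in 4 windows (cAMP response element, 7.02% against 1.55% of all), 3 windows (NF-kB, 5.26% against 7.25%), 2 windows (heat shock element, 3.51% against 6.69%) and 1 window (AP-1, 1.75% against 6.75%). A match is a run of letters and not a shown binding site.

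The upstream windows of 4 genes are printed here, chosen by their side differences: Gadd45a and Fas, called at both times, Btg2, highest at 3 h, and Cdkn1a, called at 6 h only. Of the 4, limma called the change of the side difference between the times for Btg2 alone. For Cdkn1a that change was 0.47 (adjusted p = 0.0797, 0.0754 with edgeR and 0.0267 with DESeq2). Each is 250 bases, 5′ to 3′ on the gene's strand, with motif letters in capitals. Only windows that held a motif were printed, so a window at another start of the same gene may hold none. Whether a printed window lies at the gene's main start was not examined. In Gadd45a (chr6:67037408-67037657, minus strand) the capitals mark a p53 decamer that begins 40 bases before the start. In Cdkn1a (chr17:29090729-29090978, plus strand) they mark p53 decamers that begin 73 and 51 bases before it. In Btg2 (chr1:134079156-134079405, minus strand) they mark a cAMP response element that begins 166 bases before it, and in Fas (chr19:34290409-34290658, plus strand) an AP-1 site at 211 and a heat shock element at 180 bases before it.
Gadd45a: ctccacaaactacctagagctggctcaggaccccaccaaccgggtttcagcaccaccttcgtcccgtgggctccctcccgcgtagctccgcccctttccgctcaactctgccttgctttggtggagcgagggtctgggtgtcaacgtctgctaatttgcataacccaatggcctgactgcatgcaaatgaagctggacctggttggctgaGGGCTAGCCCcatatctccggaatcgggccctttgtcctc
Cdkn1a: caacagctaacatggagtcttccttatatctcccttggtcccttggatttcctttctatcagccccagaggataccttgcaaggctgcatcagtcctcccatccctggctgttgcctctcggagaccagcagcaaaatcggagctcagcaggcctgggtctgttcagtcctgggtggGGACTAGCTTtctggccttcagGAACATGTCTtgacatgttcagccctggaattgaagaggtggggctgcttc
Btg2: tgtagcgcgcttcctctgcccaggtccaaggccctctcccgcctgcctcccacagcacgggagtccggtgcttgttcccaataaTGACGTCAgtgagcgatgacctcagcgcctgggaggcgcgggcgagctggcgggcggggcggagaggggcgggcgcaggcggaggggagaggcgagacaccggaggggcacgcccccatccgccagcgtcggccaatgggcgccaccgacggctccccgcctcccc
Fas: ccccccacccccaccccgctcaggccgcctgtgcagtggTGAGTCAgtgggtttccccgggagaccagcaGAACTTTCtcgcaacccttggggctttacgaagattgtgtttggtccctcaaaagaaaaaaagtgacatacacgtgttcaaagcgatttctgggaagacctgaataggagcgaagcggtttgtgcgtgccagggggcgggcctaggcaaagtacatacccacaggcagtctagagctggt

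In the pro-apoptotic BCL2 family, 3 genes of the BH3-only class rose at both times. Pmaip1, which encodes NOXA, a partner and antagonist of MCL1, was 27.3 to 102.0 (median 53.6) contralaterally and 89.0 to 222.4 (134.6) ipsilaterally at 3 h, and 19.5 to 50.5 (35.2) and 98.7 to 227.7 (140.7) at 6 h. The sides overlapped at 3 h and were separate at 6 h, with differences of 1.40 ± 0.22 (adjusted p = 0.000108) and 2.09 ± 0.22 (5.3e-07). Bcl2l11, which encodes BIM, was 242.8 to 520.7 (293.1) against 525.6 to 719.5 (628.1) at 3 h and 220.5 to 321.0 (272.2) against 680.4 to 870.5 (775.0) at 6 h. It was separate at both times, at 0.98 ± 0.14 (4.92e-05) and 1.52 ± 0.14 (1.27e-07). Bbc3, which encodes PUMA, a main killer downstream of p53, was 310.3 to 388.9 (349.9) against 452.0 to 679.1 (590.4) at 3 h and 277.0 to 372.2 (312.0) against 338.8 to 1110 (809.5) at 6 h. The 338.8 belonged to the labelled NEIL1-KO replicate 2 that stands apart, which alone overlapped the contralateral range at 6 h. The Bbc3 difference was 0.71 ± 0.16 (0.00296) at 3 h and 1.17 ± 0.16 (1.25e-05) at 6 h, and 1.37 at 6 h without that library.

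Hrk, a BH3-only gene best known from neurons deprived of trophic support, fell. It was 2106 to 2915 (median 2413) contralaterally and 1182 to 2102 (1734) ipsilaterally at 3 h, and 2119 to 2448 (2273) and 791.5 to 1827 (1296) at 6 h. Every ipsilateral library lay below every contralateral one at both times, and the difference was -0.55 ± 0.12 (adjusted p = 0.00142) and -0.83 ± 0.12 (1.28e-05). It moved the same way as the neuronal markers given above, which were lower on the same side, and their part in it was not tested. Bid, which carries the signal of caspase 8 to mitochondria, was also lower at 6 h (-0.43 ± 0.10, 0.00128), and its 3 h difference of -0.22 ± 0.10 was not called (0.0979). The pore-forming genes Bax and Bak1 were called at 6 h only, with differences of 0.24 and 0.37. Bax was 695.1 to 790.8 (761.4) against 702.6 to 911.4 (719.9) at 3 h and 671.5 to 742.6 (711.1) against 755.5 to 891.3 (840.3) at 6 h. Its sides overlapped at 3 h (0.03 ± 0.06, 0.749) and were separate at 6 h (0.24 ± 0.06, 0.00206), and Bak1 did the same (0.04 ± 0.07, 0.696, then 0.37 ± 0.07, 0.000168). The change of the side difference between the times was not called by limma for either gene (Bak1 0.33, adjusted p = 0.0784). DESeq2 called it for Bak1 (0.0437) and edgeR did not (0.0733). Bmf, a BH3-only gene, was 100.5 to 223.8 (175.7) against 110.8 to 177.7 (128.0) at 3 h and 110.2 to 226.3 (142.1) against 191.7 to 250.9 (209.5) at 6 h. The difference was -0.34 ± 0.14 (0.0848) at 3 h and 0.52 ± 0.14 (0.0059) at 6 h, with overlap at both times. Bad, a BH3-only gene controlled by phosphorylation, was not called (0.09 and 0.14).

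The protective members split. Mcl1, which encodes a short-lived guardian of neurons, was 1889 to 2861 (median 2168) contralaterally and 3724 to 4500 (3986) ipsilaterally at 3 h, and 1974 to 2613 (2007) and 3716 to 5599 (5093) at 6 h. The sides were separate, at 0.84 ± 0.09 (adjusted p = 1.61e-06) and 1.19 ± 0.09 (9.9e-09). Bcl2l1, which encodes BCL-XL, was lower, at 2026 to 2463 (2141) against 1617 to 1958 (1837) at 3 h and 1991 to 2333 (2021) against 1437 to 1947 (1781) at 6 h. Every ipsilateral library lay below the contralateral ones, and the difference was -0.26 ± 0.06 at both times (0.00389 and 0.00201). Bcl2 was 262.7 to 382.2 (301.7) against 328.4 to 440.4 (388.5) at 3 h and 286.9 to 373.2 (340.1) against 295.4 to 614.7 (400.0) at 6 h. Its sides overlapped, and the difference of 0.30 ± 0.12 missed the threshold at 3 h (0.0653) and passed at 6 h (0.0419). At 3 h Bcl2 was called when the fit held the compared groups alone (adjusted p = 0.0131), with the Ttr term (0.0427) and without NEIL2-KO ipsilateral replicate 1 (0.0424). The Bcl2 call at 6 h was lost when the fit held the compared groups alone (0.0967) and without any 1 of 6 libraries, among them the one that stands apart (0.19, adjusted p = 0.165). Bcl2l2, which encodes BCL-W, stood on 2 lines that moved in opposite directions. The first was 463.8 to 687.5 (593.5) against 638.1 to 1001 (695.1) at 3 h and 393.2 to 953.7 (668.5) against 491.3 to 910.0 (662.0) at 6 h. It was called higher at 3 h (0.33 ± 0.11, 0.0218), a call lost without any 1 of 6 libraries (up to 0.0840), and was not called at 6 h (0.08 ± 0.11, 0.576). The second was 1234 to 1667 (1576) against 1048 to 1476 (1374) at 3 h and 1206 to 1404 (1364) against 894.7 to 1264 (1126) at 6 h. It was lower at both times with overlapping sides (-0.21 ± 0.05, 0.00768, and -0.28 ± 0.05, 0.000421). The table does not say what separates the lines, so the gene's direction is uncertain.

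Of the genes for proteins that mitochondria release and the apoptosome they build, limma called 1 of 5 between the sides at each time, Apaf1, while edgeR and DESeq2 called 2 at 3 h and 1 at 6 h. Apaf1, which encodes the scaffold of the apoptosome, was 512.1 to 759.3 (median 706.6) contralaterally and 471.6 to 502.2 (494.8) ipsilaterally at 3 h, and 540.6 to 804.7 (646.5) and 471.7 to 511.8 (489.3) at 6 h. It was below the contralateral range in every ipsilateral library, at -0.46 ± 0.08 (adjusted p = 0.000276) and -0.43 ± 0.08 (0.000213), and the ipsilateral libraries of all genotypes lay close together. Endog was 91.7 to 203.6 (139.9) against 90.0 to 119.9 (102.4) at 3 h and 92.7 to 140.6 (106.8) against 67.6 to 169.1 (101.2) at 6 h. Aifm1 was 317.6 to 412.8 (376.4) against 326.7 to 388.7 (356.5) at 3 h and 296.3 to 360.9 (333.9) against 261.1 to 329.2 (297.1) at 6 h. The sides of both overlapped. Cycs (cytochrome c), Diablo (SMAC), Aifm1 (apoptosis-inducing factor) and Endog (endonuclease G) were not called by limma, with differences between -0.45 ± 0.17 (Endog at 3 h, 0.0536, but 0.0423 with edgeR and 0.0290 with DESeq2) and 0.09 ± 0.10 (Diablo at 3 h, 0.523). Cycs has processed pseudogene copies, so its level is uncertain.

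Among the caspases, the initiator of the receptor route and an effector rose while the initiator of the mitochondrial route did not. Casp8 was 51.3 to 67.1 (median 61.4) contralaterally and 80.6 to 112.1 (90.8) ipsilaterally at 3 h, and 74.4 to 101.8 (82.7) and 102.0 to 293.5 (135.5) at 6 h. The sides were separate at both times, though narrowly at 6 h, with differences of 0.62 ± 0.14 (adjusted p = 0.00284) and 0.79 ± 0.14 (0.000163). The 293.5 came from the library that stands apart, without which the 6 h difference was 0.65. Within a genotype Casp8 was called in labelled NEIL1-KO only, at both times. Casp6, an effector known for cutting lamins, was 75.2 to 125.6 (99.2) against 107.0 to 159.9 (128.3) at 3 h and 86.6 to 120.7 (103.0) against 130 to 217.6 (171.6) at 6 h. It overlapped at 3 h (0.42 ± 0.13, 0.0177, lost without any 1 of 4 libraries, up to 0.0693) and was separate at 6 h (0.73 ± 0.13, 0.000124). Casp9, the caspase of the apoptosome, was 683.1 to 741.9 (721.5) against 590.8 to 772.1 (689.3) at 3 h and 702.7 to 767.0 (737.3) against 516.6 to 834.3 (777.8) at 6 h. Its sides overlapped and it was not called (-0.07 ± 0.08, 0.559, and -0.01 ± 0.08, 0.908). Casp2, an initiator linked to stress in the nucleus, was 302.1 to 365.7 (344.0) against 351.3 to 461.7 (381.5) at 3 h and 288.3 to 425.6 (354.8) against 348.0 to 460.1 (417.3) at 6 h. Its sides overlapped and it was not called either (0.19 ± 0.08, 0.0838, and 0.18 ± 0.08, 0.0796), although the ipsilateral value was above its contralateral partner in 6 of 6 animals at each time.

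All 3 death receptor genes rose. Fas, which encodes the receptor of FAS ligand, was 7.64 to 37.3 (median 29.9) contralaterally and 78.9 to 201.4 (106.1) ipsilaterally at 3 h, and 9.93 to 30.4 (19.2) and 101.2 to 242.9 (221.5) at 6 h. The sides were far apart, with 152 reads against 727 summed over 6 libraries at 3 h and 106 against 1378 at 6 h, and the difference was 2.16 ± 0.30 (adjusted p = 2.93e-05) and 3.32 ± 0.30 (8.4e-08). Tnfrsf1a, which encodes the main TNF receptor, was 206.4 to 353.0 (314.6) against 388.0 to 750.6 (480.2) at 3 h and 271.0 to 448.0 (312.2) against 751.2 to 1136 (776.6) at 6 h. It was separate at both times, at 0.78 ± 0.15 (0.000758) and 1.39 ± 0.15 (7.75e-07). Tnfrsf10b, which encodes the mouse TRAIL receptor and is a p53 target, was 14.2 to 37.3 (24.7) against 48.2 to 112.5 (76.7) at 3 h and 11.9 to 41.0 (28.9) against 28.8 to 146.3 (71.5) at 6 h. Its sides were separate at 3 h and overlapped at 6 h, and the difference was 1.60 ± 0.28 (0.000335) and 1.49 ± 0.28 (0.000309). At 6 h both WT ipsilateral libraries (40.9 and 28.8) lay within the contralateral range, and WT replicate 2 had 41.0 contralaterally and 28.8 ipsilaterally. Within a genotype Tnfrsf10b was called at both times in each knockout and at neither time in WT. The sides of WT were nevertheless separate at 3 h (24.1 and 26.6 contralaterally, 57.8 and 58.7 ipsilaterally). Both NEIL2-KO calls were lost in each of 4 fits with 1 library left out, and the labelled NEIL1-KO call at 3 h held in 2 of 4. The side response of Tnfrsf10b was not found to differ between genotypes.

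The inhibitors of apoptosis, ubiquitin ligases that hold caspases and RIPK1 in check, differed among themselves. Birc3, an NF-kB target, was 42.6 to 87.7 (median 55.7) contralaterally and 77.3 to 103.0 (95.9) ipsilaterally at 3 h, and 35.9 to 64.4 (52.3) and 79.0 to 174.0 (116.1) at 6 h. The sides overlapped at 3 h and were separate at 6 h, at 0.64 ± 0.17 (adjusted p = 0.00821) and 1.22 ± 0.17 (1.33e-05). Birc2, a relative that also marks RIPK1, was 402.9 to 516.5 (433.1) against 402.3 to 615.2 (556.4) at 3 h and 415.8 to 600.4 (476.7) against 603.1 to 687.1 (624.4) at 6 h. With limma it missed the threshold at 3 h (0.25 ± 0.10, 0.0591), where edgeR (0.0409) and DESeq2 (0.0405) called it, and was higher at 6 h (0.39 ± 0.10, 0.00297) with the sides separate. Xiap, which binds and blocks caspases directly, was 1505 to 1899 (1761) against 1457 to 1677 (1628) at 3 h and 1557 to 1949 (1716) against 1418 to 1774 (1452) at 6 h. It was lower at 6 h (-0.21 ± 0.06, 0.00669) and not called at 3 h (-0.11 ± 0.06, 0.169), with overlap at both times.

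In the necroptosis route, both kinases rose at each time and the pore gene was called at 6 h. Ripk1 was 129.6 to 185.3 (median 158.1) contralaterally and 218.9 to 316.0 (268.3) ipsilaterally at 3 h, and 77.05 to 175.3 (159.3) and 310.2 to 378.2 (339.6) at 6 h. It was separate at both times, at 0.78 ± 0.15 (adjusted p = 0.000546) and 1.24 ± 0.15 (1.79e-06). Ripk3 was low but separate, at 5.33 to 12.1 (9.18) against 15.2 to 20.7 (17.9) at 3 h and 8.93 to 21.3 (10.9) against 23.04 to 54.6 (37.0) at 6 h. Its reads summed to 53 against 114 at 3 h and 67 against 254 at 6 h, and the difference was 0.99 ± 0.22 (0.00223) and 1.47 ± 0.22 (2.75e-05). Mlkl, the executioner, was lower still, at 3.17 to 12.1 (7.84) against 3.46 to 16.1 (8.65) at 3 h and 2.66 to 8.70 (3.75) against 8.90 to 27.8 (10.98) at 6 h. It was not called at 3 h (0.32 ± 0.32, 0.479). Within a genotype Mlkl was called in labelled NEIL1-KO at 6 h only. At 6 h the sides were separate, but on 23 against 95 reads (1.47 ± 0.32, 0.000958), and the 27.8 came from the library that stands apart. At this depth the fitted fold of Mlkl and Ripk3 depends on the added 1.

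**Figure D3:**
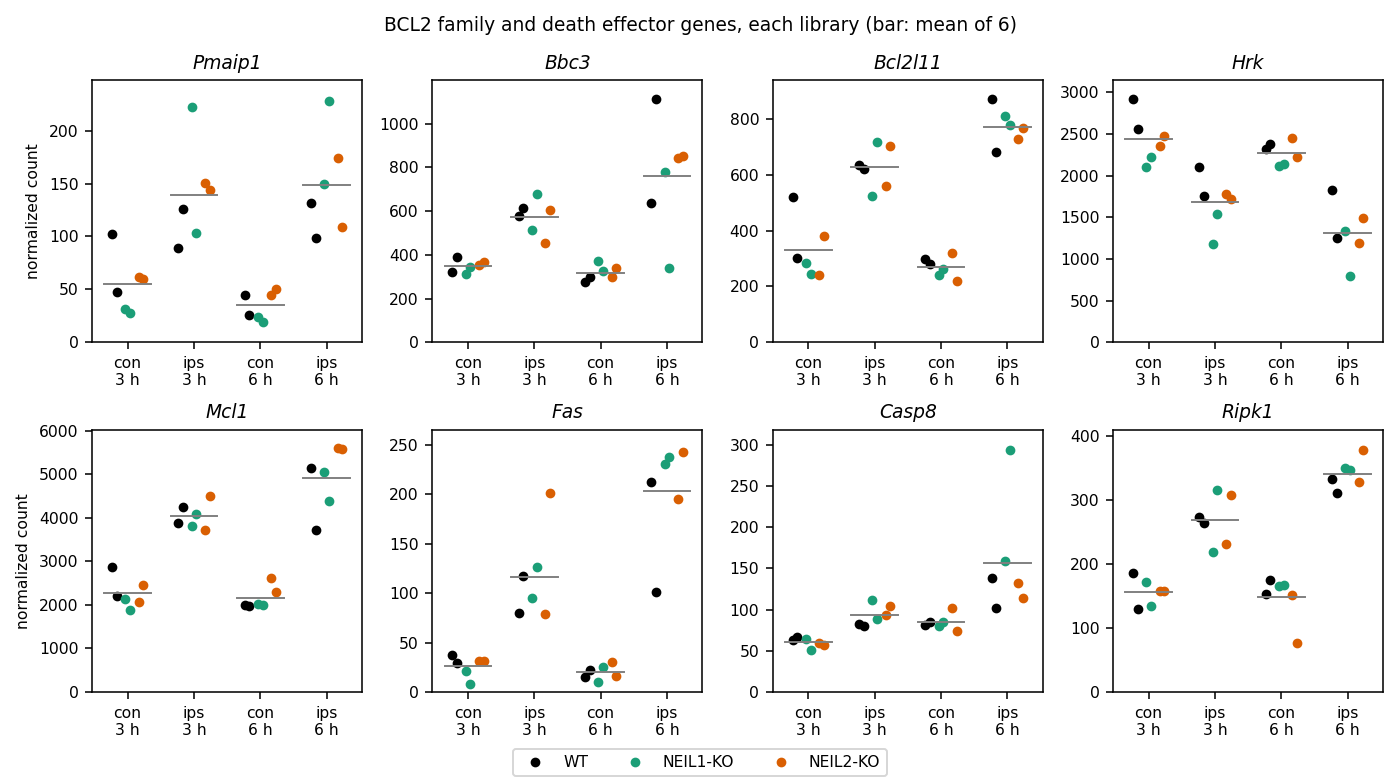
Normalized count (vertical axis, from 0, scale differs by panel) of 8 death genes in each library, by side and time, coloured by genotype label; the bar is the mean of 6 libraries. Pmaip1, Bbc3, Bcl2l11, Mcl1, Fas, Casp8 and Ripk1 are higher on the ipsilateral side and Hrk is lower, and the lowest ipsilateral Bbc3 at 6 h (338.8) is labelled NEIL1-KO replicate 2.

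Within each genotype and time, with 2 animals a group, the same genes led. In WT at 3 h 6 lines were higher and 1 lower, against 4.29% of all lines called (2.49% higher and 1.79% lower). In labelled NEIL1-KO at 3 h they were 16 and 3, against 17.0% (7.20% and 9.85%), and in NEIL2-KO 11 and 0, against 9.24% (4.29% and 4.95%). At 6 h the counts were 15 and 2 in WT, against 20.6% (10.4% and 10.3%), 23 and 6 in labelled NEIL1-KO, against 39.0% (17.6% and 21.4%), and 18 and 3 in NEIL2-KO, against 24.8% (12.2% and 12.6%). With the compared groups alone in the fit, the WT 3 h count was 15 rather than 7 and the labelled NEIL1-KO 3 h count 12 rather than 19. The order of these counts at 3 h thus depends on the fit. The share of all lines called in these fits, and in those with 1 library left out, is not given. A count that moved is therefore not a result about the members alone. Leaving out 1 library lowered the WT 3 h count of 7 to 2 (without replicate 2 of either side) or 4 (without ipsilateral replicate 1), and the labelled NEIL1-KO 3 h count of 19 to 10 (without contralateral replicate 2) or 11 (without ipsilateral replicate 1). In NEIL2-KO the count of 11 at 3 h came down to 5 (without contralateral replicate 1 or ipsilateral replicate 2) or 7 (without contralateral replicate 2), and that of 21 at 6 h to 13 (without ipsilateral replicate 1). Gadd45a, Gadd45b, Gadd45g, Plk3 and Mcl1 were called higher in all 6 responses, and no line was called lower in all 6. Btg2, Pmaip1, Bcl2l11 and Fas were called higher in 5 of 6, Btg2 missing in WT at 6 h and the others in WT at 3 h. Hrk and Apaf1 were called lower in 4 of 6 and were below 0 in all 6. In 22 lines all 6 differences were above 0, in 6 lines all were below 0, and 15 lines were called in none. The matching counts over all lines are not given, so these counts over the 6 responses do not show how unusual the members are.

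**Figure D4:**
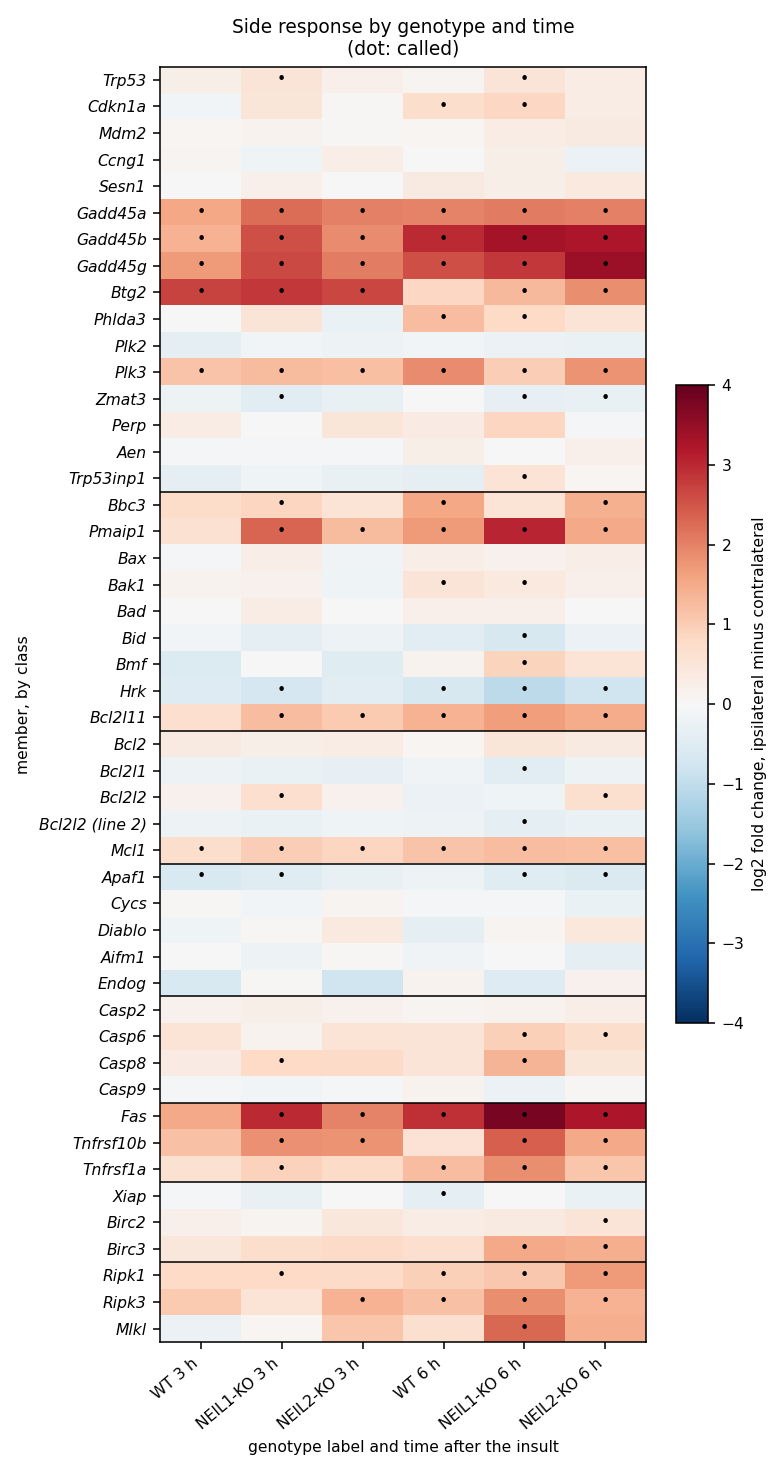
Difference between the sides (log2, colour scale from -4 to 4) of the 48 lines, by genotype label and time; a dot marks a called difference. Gadd45a, Gadd45b, Gadd45g, Plk3 and Mcl1 carry a dot in all 6 columns, and Ccng1, Mdm2, Sesn1, Bax and Casp9 carry none.

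The side response was compared between the times directly, as the 6 h difference minus the 3 h difference. It was larger at 6 h for 4 lines and smaller for 1, against 1.90% of all lines called (1.43% larger, 0.463% smaller). The larger ones were Gadd45b (1.23 ± 0.28, adjusted p = 0.0318), Bmf (0.86 ± 0.20, 0.0374), Gadd45g (0.81 ± 0.20, 0.0487) and Phlda3 (0.78 ± 0.18, 0.0339), and the smaller one was Btg2 (-1.40 ± 0.31, 0.0308). None of the 5 calls held without each library in turn: Gadd45g was lost in 20 of 24 such fits, Phlda3 in 15, Bmf in 14, Gadd45b in 12 and Btg2 in 9. The count ranged from 0 to 7, and was 0 without either WT ipsilateral 3 h library, NEIL2-KO ipsilateral 3 h replicate 1, NEIL2-KO ipsilateral 6 h replicate 2, NEIL2-KO contralateral 3 h replicate 2, labelled NEIL1-KO contralateral 3 h replicate 1 or either labelled NEIL1-KO contralateral 6 h library. The highest adjusted p in those fits was 0.120 for Gadd45g and 0.0935 or less for the others. Beside the 5 limma calls, DESeq2 called Cdkn1a (limma 0.47, adjusted p = 0.0797) and Bak1 (0.33, 0.0784). The mean of Gadd45b went from 315.7 at 3 h to 152.9 at 6 h contralaterally, and from 1107 to 1363 ipsilaterally. The Gadd45g change lay on the contralateral side, while its ipsilateral mean was 2424 at 3 h and 2445 at 6 h. Between 3 h and 6 h it fell contralaterally by 0.82 ± 0.14 on the log2 scale (0.0193), the 1 member called there, against 0.332% of all lines (0.114% higher and 0.218% lower); the call was lost without 7 of the 12 libraries, 1 at a time (up to 0.106). DESeq2 called 3 members there, adding Gadd45b (limma -0.93, adjusted p = 0.0519) and Zmat3 (-0.21, 0.157), and the Ttr term gave 2. On the ipsilateral side 7 lines were higher at 6 h than at 3 h and 4 lower, against 12.7% of all lines (5.14% higher and 7.52% lower). Among these called lines, Ripk3 (0.97 ± 0.22, 0.00937), Tnfrsf1a (0.74 ± 0.15, 0.00477), Bmf (0.67 ± 0.14, 0.00634), Phlda3 (0.67 ± 0.13, 0.00349) and Casp8 (0.66 ± 0.14, 0.00707) rose most and Btg2 fell most (-1.57 ± 0.22, 0.000606). Casp6 (0.39) and Bak1 (0.24) were also higher, and Hrk (-0.37), Aifm1 (-0.27) and the second Bcl2l2 line (-0.26) lower. Fas rose by 0.82 but was not called by limma (0.0755), while edgeR (0.0341) and DESeq2 (0.0172) called it. Mcl1 (0.27, 0.0503) was likewise called by edgeR (0.0396) and DESeq2 (0.0208) only, and each of these tools called 13 lines. With the ipsilateral groups alone in the fit 5 of the 11 lines were called, and without WT 3 h replicate 1 or NEIL2-KO 6 h replicate 1 there were 7.

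The side response was not found to differ between genotypes for any member. With limma 0 lines were called in labelled NEIL1-KO against WT (12 at an unadjusted p under 0.05, 0 with edgeR and 0 with DESeq2) and 0 in NEIL2-KO against WT (5 unadjusted, 0 and 0), and 0% of all lines were called in both. The widest differences were Pmaip1 in labelled NEIL1-KO (1.53 ± 0.38, adjusted p = 0.303) and Mlkl in NEIL2-KO (1.06 ± 0.55, 0.869). The count of 0 for labelled NEIL1-KO did not hold without its ipsilateral 6 h replicate 1. The share of all lines called in that fit is not given. A missed threshold does not show that the genotypes respond alike. On the contralateral side, 0 lines differed between labelled NEIL1-KO and WT (9 unadjusted, 0 with edgeR, 2 with DESeq2, against 0.103% of all lines called) and 0 between NEIL2-KO and WT (5 unadjusted, 0 and 0, against 0.0817%). On the ipsilateral side, 0 lines differed between NEIL2-KO and WT (3 unadjusted, 0 and 0, against 0.109%). The comparisons of the knockouts share the WT libraries.

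On the ipsilateral side, 7 lines of 6 genes differed between labelled NEIL1-KO and WT, 4 higher and 3 lower, against 9.31% of all lines called (1.91% higher and 7.40% lower). Trp53 was 460.3, 421.6, 478.0 and 407.3 in WT (3 h replicates 1 and 2, then 6 h replicates 1 and 2) and 563.9, 527.8, 648.7 and 589.7 in labelled NEIL1-KO. The groups were separate, and the mean difference over both times was 0.40 ± 0.09 (adjusted p = 0.0131). Diablo, which lifts the block of inhibitors of apoptosis, was 108.9, 104.8, 106.8 and 100.4 against 126.0, 146.8, 147.1 and 163.9. It was separate as well (0.46 ± 0.12, 0.0251). Zmat3 was 1779, 1712, 1539 and 1683 against 1127, 1418, 1306 and 1151, separate and lower by -0.43 ± 0.07 (0.00559). Casp8 was 82.4, 80.6, 138.9 and 102.0 against 112.1, 88.5, 159.3 and 293.5, and was higher with overlap (0.57 ± 0.17, 0.0478). Without labelled NEIL1-KO 6 h replicate 2, the library with a Casp8 level of 293.5, the Casp8 difference was 0.35 (adjusted p = 0.294). Hrk was 2102, 1753, 1827 and 1254 against 1182, 1539, 1338 and 791.5, lower with overlap (-0.53 ± 0.14, 0.0286). Bcl2l2 again moved in opposite directions on its lines. The first was 676.2, 699.1, 491.3 and 642.6 against 749.8, 1001, 738.0 and 910.0, separate and higher (0.44 ± 0.13, 0.0423), and the second was 1373, 1462, 1128 and 1264 against 1048, 1158, 894.7 and 961.0, overlapping and lower (-0.36 ± 0.07, 0.00694).

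These 7 calls depended on the fit. With the compared groups alone 0 were left (adjusted p 0.260 to 0.278). With a term for high Xist 3 were left (Trp53, Zmat3 and the second Bcl2l2 line). With a term for Ttr, added after the data were seen, 2 were left (Zmat3 and the first Bcl2l2 line). Leaving out 1 library gave 2 lines (without WT 3 h replicate 1 or labelled NEIL1-KO 3 h replicate 1) to 13 (without labelled NEIL1-KO 6 h replicate 1), and 3 without the library that stands apart, WT 3 h replicate 2 or WT 6 h replicate 2. Zmat3 and the second Bcl2l2 line kept their calls without each of the 8 libraries (up to 0.0431 and 0.0478). In the same comparison 9 of 12 neuronal markers were lower and 0 higher, their sum lying at 142157 to 170970 in WT and 79744 to 145720 in labelled NEIL1-KO. Of 5 red blood cell markers tested 2 were higher and 0 lower, with sums of 7711 to 14287 and 10424 to 50147. Of 10 oligodendrocyte markers 0 were higher and 3 lower, with sums of 12426 to 27622 and 10714 to 18982. Of 10 endothelial markers 2 were higher and 0 lower, with sums of 6530 to 8661 and 7766 to 15583. No marker of these lists was at 0 throughout a group, and the part of these shifts in the 7 calls was not tested.

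Other genes of these routes, on lists that do not overlap the 47, gave a mixed picture. Of all lines 14.1% were higher and 17.4% lower at 3 h, and 24% and 24.7% at 6 h, and the counts of each list stand beside those shares. Of 30 further p53 pathway genes 8 were higher and 1 lower at 3 h, and 10 higher and 6 lower at 6 h, with a median difference of 0.12 and 0.23. Btg1 and Tob1, antiproliferative relatives of Btg2, led (1.43 ± 0.08, adjusted p = 5.75e-10, and 1.47 ± 0.10, 1.43e-08, at 3 h; 1.20 and 1.39 at 6 h). Sfn, which encodes 14-3-3 sigma, and Sesn2 were called at 6 h only (1.38 ± 0.21, 3.33e-05, and 1.06 ± 0.17, 4.15e-05). Of 28 further apoptosis genes 24 were tested, with 6 higher and 6 lower at 3 h and 5 higher and 9 lower at 6 h (median -0.02 and -0.06), so that the share higher at 6 h was not above that of all lines. Bag3, a chaperone partner, rose by 1.63 ± 0.20 (1.22e-05) and 2.29 ± 0.20 (8.4e-08), while Birc6, a giant inhibitor of apoptosis, was lower by -0.50 ± 0.07 (5.87e-05) and -0.65 ± 0.07 (1.16e-06). Bcl2a1a and Bcl2a1d, near-identical copies of a protective BCL2 gene whose reads may be split uncertainly, were higher at 6 h (2.92 and 3.00).

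Of 22 further death receptor and necroptosis genes 20 were tested, with 7 higher and 3 lower at 3 h and 9 higher and 2 lower at 6 h (median 0.17 and 0.19), against the shares of all lines given above. Tnfrsf12a, the receptor of TWEAK, rose by 1.92 ± 0.19 (adjusted p = 9.68e-07) and 2.87 ± 0.19 (2.87e-09), and the deubiquitinase gene Tnfaip3 by 0.98 ± 0.16 (0.000142) and 1.41 ± 0.16 (1.13e-06). Tnfrsf1b, the other TNF receptor, rose by 0.77 ± 0.14 (0.000355) and 1.08 ± 0.14 (4.16e-06). Tnf lay at 0 to 3.20 in all contralateral libraries and at 13.4 to 22.7 ipsilaterally at 3 h and 16.6 to 64.1 at 6 h. Of 12 genes of pyroptosis and inflammatory caspases 11 were tested, with 4 higher and 0 lower at 3 h and 6 higher and 2 lower at 6 h (median 0.49 and 0.47). Casp4, which senses bacterial lipid inside cells, was 1.22 to 7.46 in the contralateral libraries against 14.6 to 26.5 at 3 h and 17.3 to 59.2 at 6 h. Il1b, an inflammatory cytokine gene, was 0 to 4.96 against 11.9 to 29.9 and 51.8 to 209.2. Il18 was called at both times (0.51 ± 0.12, 0.0037, and 0.47 ± 0.12, 0.00429), and Nlrp3, the sensor of the inflammasome, at 6 h only (0.69 ± 0.27, 0.0609, then 1.47 ± 0.27, 0.000209).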

How the data were processed

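RNA was sequenced from 24 hippocampal libraries, 12 groups of 2, from 12 animals, with each animal giving both sides according to the study's design text. The authors deposited 1 table of gene read counts divided by a size factor per library, a signal that is comparable between libraries. The build was GRCm39 (mm39), and DESeq2, featureCounts, HISAT2, SAMtools and Trim Galore are named, in no stated order, per the submitters' processing notes; versions, annotation and the use of strand are not given in the sources used here, so overlapping and antisense genes cannot be told apart from their partners. In every library the deposited values were whole multiples of 1 read for 100% of values (tolerance 1e-06), which gave back read counts of 17771293 to 29252067 per library. Of 33084 lines, 10770 carry no gene name (8.41% to 12.5% of the reads) and were left out; of 22314 named lines, 18364 with a value of at least 10 in at least 2 libraries were tested, 82.3% of them.

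The main test was limma 3.58.1 (R 4.3.3) with a mean-variance trend on log2(value + 1), with 12 group means, 12 residual degrees of freedom, two-sided p-values and Benjamini-Hochberg adjustment over all 18364 lines, threshold 0.05. An adjusted p in brackets always comes from this test unless another tool is named. In all, 17 comparisons were made. Groups follow the sample titles, and a group's 2 libraries are different animals, so p-values measure the spread between few animals. The alternatives were TMM scaling, an added 5 in place of 1, no filter, edgeR 4.0.16 (quasi-likelihood) and DESeq2 1.42.0 (Wald) on the recovered reads, the compared groups alone, the animal as a replicate block, a term for high Xist and each library left out; a term for Ttr was added after the data were seen. Same-numbered libraries of the 2 sides deviated together weakly: the correlation of their deviations over 18364 lines was 0.271 and 0.155 (3 h and 6 h) for the labelled NEIL1-KO animals, 0.0537 and 0.0350 for NEIL2-KO and -0.00576 and -0.00334 for WT, so the pairing comes from the design text.

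The members, the pathway and marker lists and the rule for naming genes were chosen with earlier results of these data known. The rule gives in full up to 4 members per class with the smallest adjusted p for the side difference and 16 members whatever their values, any member called between times or genotypes, and up to 4 genes per pathway list; other members are named to account for all 47. Astrocyte, microglia, oligodendrocyte, choroid plexus and neutrophil-monocyte markers were also counted: on the ipsilateral side (3 h, then 6 h) 2 and 4 of the astrocyte markers were higher and 1 and 2 lower, 2 and 5 of the microglial ones higher and 2 and 2 lower, 0 and 1 of the oligodendrocyte ones higher and 3 and 1 lower, 0 and 0 of the choroid plexus ones higher and 0 and 1 lower, 1 and 2 of the neutrophil-monocyte ones higher and 0 lower, and 0 and 4 of the red blood cell ones higher and 0 lower.

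A planned search of the BCL2 family proteins for a shared motif was not run, and no protein sequence was used here.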

Additional observations from a re-analysis of the deposited data

Results flagged for a closer look

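For 5 members the difference between the sides was itself different at 6 h and at 3 h, by limma's test of that difference. The test used 24 libraries from 12 animals, with no term for the animal. Gadd45b differed by 1.23 (adjusted p = 0.0318), Bmf by 0.86 (0.0374), Gadd45g by 0.81 (0.0487) and Phlda3 by 0.78 (0.0339), all larger at 6 h. Btg2 differed by -1.40 (0.0308), smaller at 6 h. Each of the 5 lost its call when at least 1 library was left out, as given above.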

How the results depend on the processing

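Of the 25 side calls at 3 h and 36 at 6 h with genotypes averaged, 22 and 33 held under each alternative run, including each library left out, and no called member reversed. Leaving out 1 library gave 22 to 29 calls at 3 h and 34 to 38 at 6 h. Within genotypes the ranges were 2 to 7 (WT), 10 to 14 (labelled NEIL1-KO) and 5 to 9 (NEIL2-KO) at 3 h, and 12 to 15, 21 to 29 and 13 to 19 at 6 h. They were 0 to 7 for 6 h against 3 h of the side response, 0 to 2 and 7 to 12 for time on the contralateral and ipsilateral side, 2 to 13 for labelled NEIL1-KO against WT ipsilaterally and 0 to 5 for the difference in side response between them; the remaining genotype comparisons stayed at 0. With the compared groups alone in the fit, the count was 15 rather than 7 for WT at 3 h, 12 rather than 19 for labelled NEIL1-KO at 3 h, 5 rather than 11 for time ipsilaterally, 1 rather than 0 for labelled NEIL1-KO against WT contralaterally and 0 rather than 7 ipsilaterally. DESeq2 gave 3 rather than 1 for time contralaterally and 2 rather than 0 for labelled NEIL1-KO against WT contralaterally. The Ttr term gave 2 for time contralaterally and 2 for labelled NEIL1-KO against WT ipsilaterally, where the Xist term gave 3. The share of all lines called in these alternative runs is not given, so a moved count does not concern the members alone. The causes were not tested. With the replicate block (the animal), counts were 26 at 3 h and 35 at 6 h for the side, 7 for labelled NEIL1-KO against WT ipsilaterally and 6 for the change with time; among all counts none moved by over 1.5 times. Only uncalled values changed sign: Casp9 at 6 h was 0.0023 with TMM, 0.0099 with edgeR and -0.10 to 0.0742 with 1 library left out, and Mlkl at 3 h was -0.0026 to 0.64. Depth limits Mlkl and Ripk3 most, on 23 to 254 reads per side and time.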
